A study of Mus musculus with 6 samples.

Results

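The cluster of miR-183, miR-96 and miR-182 is a group of 3 microRNA (miRNA) hairpins that lie close together on mouse chromosome 6 and are made from a common primary transcript. The 4 mature miRNAs described here, mmu-miR-182-5p, mmu-miR-183-5p, mmu-miR-96-5p and mmu-miR-183-3p, written below without the prefix for the mouse, were found by name in the deposited table, where each had 1 row, among 1034 distinct mature miRNAs. The remaining arms of the same hairpins, miR-182-3p and miR-96-3p, were also in the table and are given for context. The study measured small RNA in nephron progenitor cells, the self-renewing cells at the rim of the developing kidney from which nephrons form. The cells came from CD1 mice, either embryos at stage E14.5 or newborn pups at stage P0, with no treatment or genetic change named, and 3 samples were taken at each of the 2 stages. Each sample pooled the kidneys of 1 litter, and the progenitors were enriched with magnetic beads against the integrin Itga8 after a short digestion, per the labels' protocols. The table holds no messenger RNAs, so the purity of the cells was not checked here against progenitor genes such as Six2.

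A miRNA hairpin is cut to a short duplex, of which one strand, the guide, is usually kept in the Argonaute protein, while the passenger strand is mostly lost. Bases 2 to 8 of the guide form the seed, the stretch that pairs with target messenger RNAs. The cluster is best known from sensory organs, where photoreceptors and inner ear hair cells carry it at high levels, and point mutations in the seed of miR-96 cause hearing loss in mice and people.

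The mature sequences are shown because the 3 5p arms are near relatives with distinct seeds, so they can be counted apart. They are given 5′ to 3′ with the seed in capitals, from the RefSeq annotation of build GRCm38.p6, and their positions in it were those of the deposited table.
miR-183-5p: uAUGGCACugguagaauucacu
miR-96-5p: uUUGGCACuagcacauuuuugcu
miR-182-5p: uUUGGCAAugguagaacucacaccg
miR-183-3p: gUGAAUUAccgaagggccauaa
Counting positions from 1 at the 5′ end, the seed of miR-96-5p differs from that of miR-182-5p by 1 substitution, C8A, and from that of miR-183-5p by 1 substitution, U2A. The seeds of miR-182-5p and miR-183-5p differ by 2 substitutions, U2A and A8C. No other miRNA of the table with a RefSeq sequence had the seed of any of the 4, where 885 of the 1034 miRNAs had one.

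The hairpins are shown because the 2 arms of Mir183 behaved differently between the stages. All 3 are on the minus strand of chromosome 6 (GRCm38), and the mature arms are in capitals, the 5p arm first.
Mir183, chr6:30169668-30169737: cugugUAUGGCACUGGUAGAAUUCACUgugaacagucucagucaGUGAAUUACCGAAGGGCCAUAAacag
Mir96, chr6:30169446-30169551: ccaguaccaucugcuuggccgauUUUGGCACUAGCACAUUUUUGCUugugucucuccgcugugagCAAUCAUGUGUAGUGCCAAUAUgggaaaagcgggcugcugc
Mir182, chr6:30165918-30165992: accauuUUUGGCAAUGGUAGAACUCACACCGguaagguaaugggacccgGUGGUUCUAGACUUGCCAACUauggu
In the direction of transcription Mir183 comes first, Mir96 follows after 116 bases and Mir182 after a further 3453 bases, so the cluster spans 3820 bases. In GENCODE release M21 the hairpins overlapped no gene other than their own miRNA genes, and lay between Nrf1 and the lincRNA Rncr4. RefSeq places them inside the span of the long non-coding RNA Mirc35hg (chr6:30158640-30174125), the host transcript of the cluster.

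The libraries held between 2649506 and 34934526 recovered reads, and the 2 smallest, E14.5 replicates 1 and 3, were both from the earlier stage. Levels are in TPM, a unit of reads per length that sums to 1000000 in each library. Differences were tested with limma on log2(TPM + 1) in the 670 miRNAs that averaged 1 TPM or more, and p-values were adjusted over all 670. The median log2 fold change of these miRNAs, P0 over E14.5, was −1.20 in TPM and −0.17 once median-of-ratios scaling was applied, which sets the typical miRNA near no change, so the members' changes are given on both scales. P0 replicate 1 stood apart from the other P0 libraries in many miRNAs, and results are given without it where that matters.

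Between E14.5 and P0 the products of the cluster parted. miR-96-5p fell about 13.4-fold in the TPM fit (log2 fold change −4.68 to −2.90 when 1 library was left out) and 5.53-fold after median-of-ratios scaling. miR-183-3p fell about 6.25-fold in TPM, and its 2.85-fold lower level after scaling did not pass the test. The major products miR-182-5p and miR-183-5p had higher mean levels at P0. In TPM 2 of the 4 members passed the test, both lower, where 34.2% of all miRNAs tested were called, 32.8% lower and 1.34% higher. After median-of-ratios scaling 2 were called, where 10.9% of all miRNAs were. These were miR-182-5p, called higher (5.67% of all miRNAs), and miR-96-5p, called lower (5.22%). The levels of 3 members did not overlap between the stages, which held for 49.6% of all miRNAs tested.

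miR-183-5p, the guide of the first hairpin, was present at 2220, 3764 and 3315 TPM in the embryonic replicates 1 to 3 and at 1822, 8719 and 6798 TPM in the newborn replicates 1 to 3. P0 replicates 2 and 3 were above every E14.5 library and P0 replicate 1 was below them all, so the stages overlapped. The means were 3099 ± 794 TPM in embryos and 5780 ± 3559 TPM in newborns (SD, n = 3). The log2 fold change was 0.65 in TPM (SE 0.60, limma adjusted p = 0.383) and 1.94 with median-of-ratios factors (SE 0.71, limma adjusted p = 0.0869), so neither passed the threshold of 0.05. Without P0 replicate 1 it was 1.35 in TPM (limma adjusted p = 0.00249) and 2.81 with median-of-ratios factors (limma adjusted p = 0.000341). That fit called 61.0% of all miRNAs in TPM (7.98% higher and 53.0% lower) and 48.2% after scaling (21.6% higher and 26.6% lower). In abundance the miRNA ranked 61, 44 and 46 among the 1034 miRNAs at E14.5 and 56, 17 and 21 at P0.

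miR-182-5p, the guide of the last hairpin, was present at 1915, 3261 and 2710 TPM in the embryonic replicates 1 to 3 and at 3335, 4773 and 3979 TPM in the newborn replicates 1 to 3. Every P0 library was above every E14.5 library, by a narrow margin between E14.5 replicate 2 and P0 replicate 1. Stages were separated in this direction for 3.13% of all miRNAs tested. The means were 2629 ± 677 TPM in embryos and 4029 ± 720.3 TPM in newborns (SD, n = 3). The log2 fold change of 0.63 in TPM did not pass the test (SE 0.46, limma adjusted p = 0.279), whereas that of 1.92 after median-of-ratios scaling did (SE 0.46, limma adjusted p = 0.0332). In the voom fit to the reads with median-of-ratios factors it was 1.89 (limma adjusted p = 0.0513), not past the threshold. Without P0 replicate 1 the TPM change was 0.76 (limma adjusted p = 0.0434), past the threshold, as for the 7.98% called higher in that fit.

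miR-96-5p, the guide of the middle hairpin, was present at 1559, 856 and 1744 TPM in the embryonic replicates 1 to 3 and at 360.0, 86.3 and 29.8 TPM in the newborn replicates 1 to 3. The stages did not overlap, and the highest P0 library, replicate 1, was below the lowest E14.5 library, replicate 2. Stages were separated in this direction for 46.4% of all miRNAs tested. The P0 values rested on 13114, 2010 and 671 recovered reads. The means were 1386 ± 469 TPM in embryos and 159 ± 177 TPM in newborns (SD, n = 3). The log2 fold change was −3.74 in TPM (SE 0.78, limma adjusted p = 0.00605) and −2.47 with median-of-ratios factors (SE 0.68, limma adjusted p = 0.0461). The call did not hold with upper-quartile scaling (log2 fold change −2.33, limma adjusted p = 0.0507) or in a voom fit to the reads, again scaled by median-of-ratios (−2.43, limma adjusted p = 0.0791). It was also lost when a replicate block was added to median-of-ratios scaling (−2.47, limma adjusted p = 0.0514). The change in TPM was −4.68 without P0 replicate 1 and −2.90 without P0 replicate 3, both past the threshold. In the TPM fit 19 of the 670 miRNAs, this one included, had a change at or below its value. Its abundance rank went from 71, 96 and 66 in the E14.5 libraries to 107, 165 and 246 in the P0 libraries.

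miR-183-3p, the passenger arm of the first hairpin, was rare, at 40.5, 25.1 and 31.1 TPM in the embryonic replicates 1 to 3 and 8.74, 3.06 and 2.61 TPM in the newborn replicates 1 to 3. Every P0 library was below every E14.5 library, although the P0 libraries were among the deepest and gave 304, 68 and 56 reads. The log2 fold change was −2.64 in TPM (SE 0.61, limma adjusted p = 0.00777) and −1.51 with median-of-ratios factors (SE 0.55, limma adjusted p = 0.0869), so of these it was past the threshold in TPM only. Without P0 replicate 1 the change after median-of-ratios scaling was −1.84 (limma adjusted p = 0.0123), past the threshold, in a fit that called 26.6% of all miRNAs lower.

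**Figure D1:**
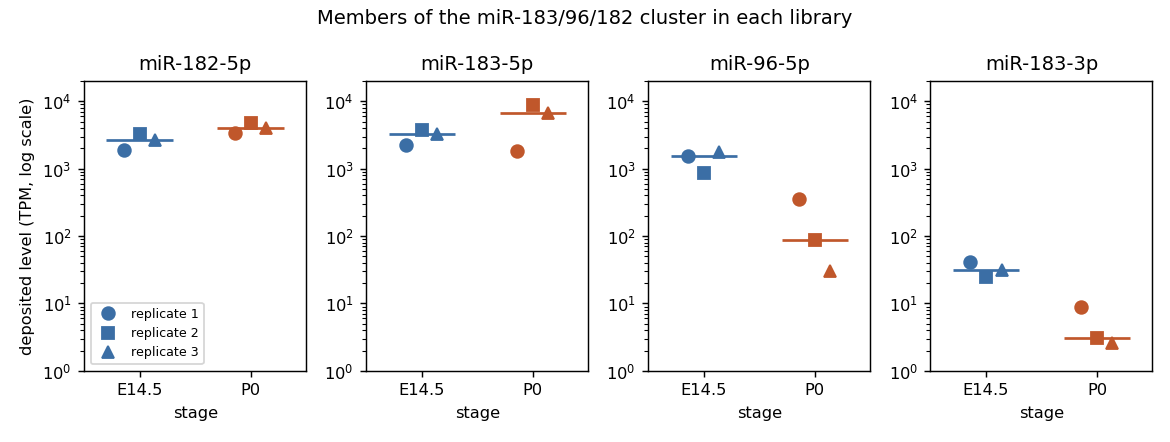
Deposited TPM (log axis) of miR-182-5p, miR-183-5p, miR-96-5p and miR-183-3p in the 3 E14.5 (blue) and 3 P0 (orange) libraries; marker shapes give the replicate and bars the stage median. miR-96-5p and miR-183-3p are lower in every P0 library. P0 replicate 1 lies apart from the other P0 libraries for miR-183-5p and miR-183-3p, and is the highest of the spread P0 values for miR-96-5p.

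The passenger arms of the other hairpins were rarer still. miR-182-3p had 9.14, 12.4 and 16.0 TPM in the embryonic replicates 1 to 3 and 4.74, 0 and 1.32 TPM in the newborn replicates 1 to 3. miR-96-3p had 4.16, 4.50 and 6.66 TPM in the embryonic replicates 1 to 3 and 0.575 TPM, or 20 reads, in P0 replicate 1. P0 replicates 2 and 3 gave 0 reads of miR-96-3p, where a floor of 3 reads corresponds to about 0.135 and 0.140 TPM. Both arms fell in the TPM fit, with log2 fold changes of −2.48 (limma adjusted p = 0.0158) and −2.37 (limma adjusted p = 0.00658), values that the pseudocount of 1 pulls towards 0. After median-of-ratios scaling the changes were −1.67 (limma adjusted p = 0.129) and −1.83 (limma adjusted p = 0.0432). All 3 passenger arms of the cluster were lower in every P0 library than in any E14.5 library in TPM, as were 46.4% of all miRNAs tested.

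**Figure D2:**
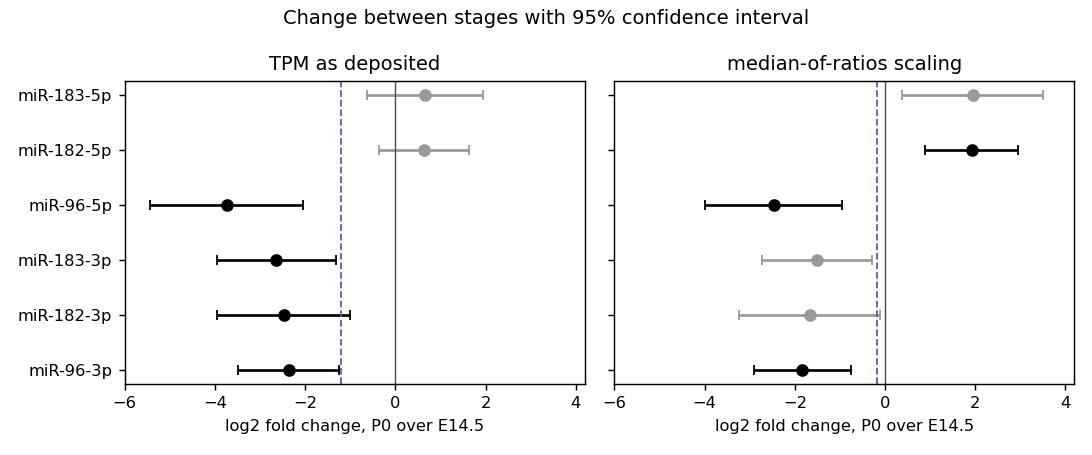
Log2 fold change, P0 over E14.5, of the 6 arms of the cluster with 95% confidence intervals from limma, in TPM (left) and after median-of-ratios scaling (right); black points pass an adjusted p of 0.05, grey points do not, and the dashed line is the median of all 670 miRNAs. The 5p arms of Mir183 and Mir182 lie to the right of the median and the other 4 arms to its left under both scalings.

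The order of the members at E14.5 was miR-183-5p, miR-182-5p, miR-96-5p and miR-183-3p in each library. The first and second overlapped in range across the E14.5 libraries, whereas miR-96-5p lay below both and miR-183-3p below miR-96-5p without overlap. At P0 miR-182-5p was the most abundant in replicate 1 and miR-183-5p in replicates 2 and 3, and the ranges of these members again overlapped. The summed level of the 4 members was 7147 ± 1225 TPM in embryos and 9973 ± 4092 TPM in newborns (SD, n = 3), with 5527, 13582 and 10809 TPM in the newborn replicates 1 to 3. The sum was therefore lowest in a P0 library, and its stages overlapped.

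The make-up of the 3 5p arms differed between the stages. miR-96-5p made up 27.4%, 10.9% and 22.4% of the summed TPM of the 5p arms in the embryonic replicates 1 to 3 and 6.52%, 0.636% and 0.276% in the newborn replicates 1 to 3. The share of miR-96-5p was below its lowest E14.5 value in all 3 P0 libraries. miR-183-5p made up 39.0% to 47.8% at E14.5, 33.0% in P0 replicate 1 and 64.2% and 62.9% in P0 replicates 2 and 3. miR-182-5p made up 33.6% to 41.4% at E14.5, 60.4% in P0 replicate 1 and 35.2% and 36.8% in P0 replicates 2 and 3. P0 replicate 1 thus differed from its stage in which of the major products led.

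**Figure D3:**
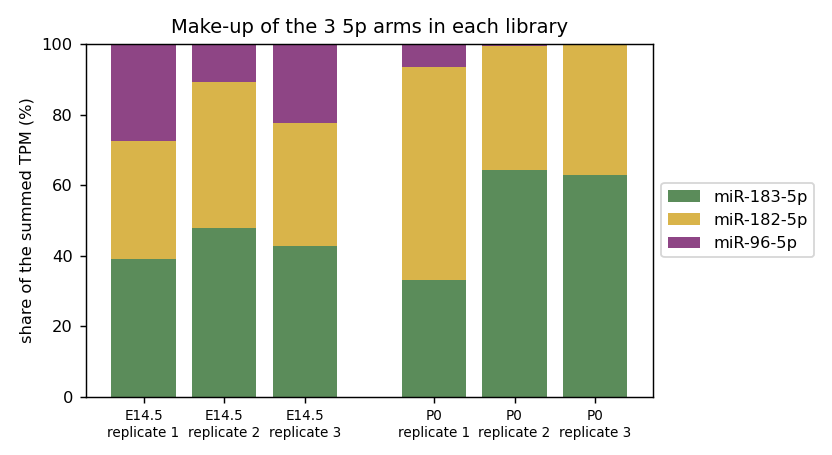
Share of the summed TPM of miR-183-5p (green), miR-182-5p (yellow) and miR-96-5p (purple) in each of the 6 libraries, in percent. The purple share is 10.9% to 27.4% in the E14.5 libraries and 0.276% to 6.52% in the P0 libraries.

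Ratios of members within a library depend on how libraries are scaled against each other only through the pseudocount, which matters for a rare member such as miR-183-3p, and 4 were tested with an exact two-sided permutation test, for which 3 libraries against 3 give no p below 0.1, so this test cannot pass 0.05 for any ratio. The log2 ratio of miR-96-5p to miR-183-5p was −1.19 ± 0.84 in embryos and −5.59 ± 2.87 in newborns (SD, n = 3), a difference of −4.40 (exact permutation p = 0.1, adjusted over the 4 ratios 0.133). As a plain ratio of TPM, miR-96-5p reached 70.2%, 22.7% and 52.6% of miR-183-5p in the embryonic replicates 1 to 3 and 19.8%, 0.990% and 0.439% in the newborn replicates 1 to 3. The hairpins of this pair lie 116 bases apart, and the ratio was lower in every P0 library than in any E14.5 library, with a small gap between E14.5 replicate 2 and P0 replicate 1. Without P0 replicate 1 the difference was −6.02, and without P0 replicate 3 it was −3.30.

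The log2 ratio of miR-182-5p to miR-96-5p moved likewise, from 0.95 ± 0.86 in embryos to 5.33 ± 1.94 in newborns (SD, n = 3), a difference of 4.38 (exact permutation p = 0.1, adjusted 0.133). miR-182-5p exceeded miR-96-5p 1.23-fold, 3.81-fold and 1.55-fold in the embryonic replicates 1 to 3 and 9.27-fold, 55.3-fold and 133-fold in the newborn replicates 1 to 3. The ratio of miR-182-5p to miR-183-5p, by contrast, had nearly the same mean log2 value at both stages, −0.24 ± 0.05 in embryos and −0.26 ± 0.98 in newborns (SD, n = 3; exact permutation p = 1, adjusted 1). The P0 values were spread, as the TPM of miR-182-5p was 0.863, 0.866 and 0.818 times that of miR-183-5p in the E14.5 libraries and 1.83, 0.547 and 0.585 times in the newborn replicates 1 to 3. The E14.5 libraries agreed closely, and the P0 libraries lay on both sides of them. Without P0 replicate 1 the difference was −0.58, and without P0 replicate 2 or 3 it turned positive.

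The arms of the Mir183 hairpin also parted. The level of miR-183-3p was 1.83%, 0.666% and 0.939% of that of miR-183-5p in the embryonic replicates 1 to 3 and 0.480%, 0.0351% and 0.0383% in the newborn replicates 1 to 3. Every P0 library was below every E14.5 library. The log2 ratio of (TPM + 1) was −6.53 ± 0.73 in embryos and −9.83 ± 1.98 in newborns (SD, n = 3), a difference of −3.30 (exact permutation p = 0.1, adjusted 0.133). The difference was −4.44 without P0 replicate 1 and −2.68 without P0 replicate 2. Arms of other hairpins differed too, so this is not particular to Mir183. In TPM the log2 fold change was −2.88 for let-7f-1-3p and 0.52 for let-7f-5p. In the other direction, it was −0.90 for the rarer arm miR-19a-5p and −4.20 for miR-19a-3p. The share of all hairpins whose arms part this far was not counted.

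**Figure D4:**
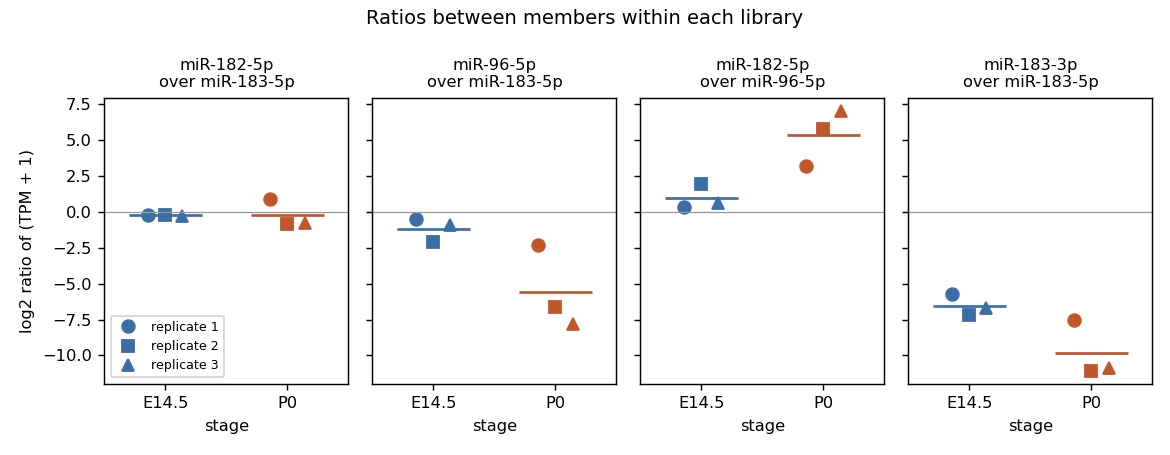
Log2 ratio of (TPM + 1) between members within each library, for 4 ratios at E14.5 (blue) and P0 (orange); marker shapes give the replicate and bars the stage mean. The ratios with miR-96-5p or miR-183-3p do not overlap between the stages, whereas the P0 libraries of miR-182-5p over miR-183-5p lie on both sides of the E14.5 libraries.

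How unusual such a parting is among neighbouring miRNAs was described over all hairpins of the table. Among 303 hairpins with an arm of at least 10 TPM on average, 380 pairs lay within 10000 bases on one strand, many of them in the large imprinted clusters and sharing hairpins. The median absolute difference of their log2 fold changes was 1.23, and the 90th percentile was 3.13. The pair miR-96-5p and miR-183-5p differed by 4.40, a value reached or passed in 9 of the 380 pairs (2.37%), this pair included. The pair miR-182-5p and miR-183-5p differed by 0.02, a difference met or exceeded in 98.9% of the pairs. That value is a difference of stage means, and the P0 ratios of this pair lay on both sides of the E14.5 ratios. With 1 library left out, the difference in its log2 ratio ranged from −0.58 to 0.29, so the 0.02 does not show a tight match. Among 108 pairs with at least 100 TPM in each hairpin, the difference of miR-96-5p and miR-183-5p was reached in 3, the other 2 being miR-382-5p with miR-369-3p and miR-379-5p with miR-495-3p, both of the imprinted cluster on chromosome 12.

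**Figure D5:**
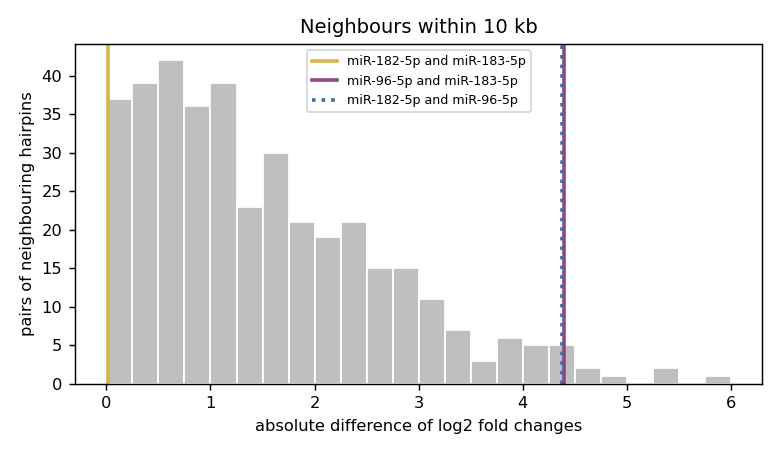
Absolute difference of the log2 fold changes in TPM for 380 pairs of hairpins within 10 kb, with the 3 pairs of the cluster as coloured lines; bars count pairs. The pairs with miR-96-5p lie in the upper tail at 4.38 and 4.40, and the pair of miR-182-5p and miR-183-5p lies at the low end at 0.02. That low value comes from stage means, with P0 ratios on both sides of the E14.5 ratios.

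The GC content of the mature sequences was set beside these changes. It was 39.1% in miR-96-5p, 40.9% in miR-183-5p and 48.0% in miR-182-5p, against a median of 47.8% over the miRNAs tested. Among 76 miRNAs with a GC content of 38% to 42%, the median log2 fold change in TPM was −1.66, with quartiles of −2.43 and −0.64, and the median after scaling was −0.54. In that group 3 miRNAs had a change at or below that of miR-96-5p and 8 at or above that of miR-183-5p, each counted with itself. After a linear GC correction, the log2 fold change of miR-96-5p was −3.24 in TPM (limma adjusted p = 0.00621) and −2.00 with both corrections, GC and median-of-ratios (limma adjusted p = 0.0405). The difference in its ratio to miR-183-5p was −4.31, but their GC contents are close, so the correction could hardly move it. For the ratio of miR-182-5p to miR-183-5p, whose GC contents differ more, the difference went from −0.02 to −0.37. The part of GC content in these changes was not tested.

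Among epithelial miRNAs, the 5 members of the miR-200 family (miR-200a-3p, miR-200b-3p, miR-200c-3p, miR-141-3p and miR-429-3p), which mark the ureteric bud and tubules, were lower at P0, as miR-96-5p was. Their summed level was 23183, 4122 and 14657 TPM in the embryonic replicates 1 to 3 and 1542, 500.2 and 872 TPM in the newborn replicates 1 to 3. E14.5 replicate 2 was the lowest E14.5 library and P0 replicate 1 the highest P0 library for both the family and miR-96-5p. The same held for miR-183-3p and for the summed endothelial, stromal and smooth muscle, and leukocyte markers given below. It is therefore not particular to epithelial miRNAs. In the neural and erythroid sums P0 replicate 1 was not the highest P0 library. Between the other libraries of each stage the family and miR-96-5p ran in opposite orders. All 5 were called lower in TPM, where 32.8% of all miRNAs were, with a median log2 fold change of −3.75. After median-of-ratios scaling 3 of 5 were called lower, where 5.22% of all miRNAs were, with a median of −2.46. Of 7 epithelial miRNAs on a wider list, which adds miR-205-5p and miR-375-3p, 6 were called lower and 0 higher in TPM, and 3 lower and 0 higher after scaling (limma). miR-205-5p, the remaining one in TPM, stood at −1.86 on the log2 scale (limma adjusted p = 0.0660), and at −0.60 after scaling (limma adjusted p = 0.584). Fewer epithelial cells and less miRNA per cell cannot be told apart in such bulk samples, and the part of these cells in the fall of miR-96-5p was not tested.

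Marker miRNAs of other cell types were summed in the same way, and their calls stand beside the 32.8% of all miRNAs called lower in TPM, and the 5.22% lower and 5.67% higher after scaling. The 2 endothelial markers, miR-126a-3p and miR-126a-5p, summed to 26608 to 44921 TPM at E14.5 and 5634 to 8158 TPM at P0, and both were called lower in TPM and 1 after scaling. Neural markers, miR-9-5p and miR-124-3p, summed to 242 to 1573 TPM at E14.5 and 53.8 to 151 TPM at P0, and the 1 that was tested, miR-9-5p, was called lower in TPM and not after scaling (limma adjusted p = 0.164). Of 5 stromal and smooth muscle markers 3 were called lower in TPM and 0 after scaling (limma; 1 at an unadjusted p under 0.05), with sums of 83971 to 100537 TPM at E14.5 and 33349 to 45658 TPM at P0. Of 4 erythroid markers 1 was called lower in TPM and 0 after scaling (limma; 2 at an unadjusted p under 0.05), with sums of 242 to 417 TPM at E14.5 and 127 to 189 TPM at P0. The 4 leukocyte markers summed to 632 to 1202 TPM at E14.5 and 454 to 629 TPM at P0, with 0 called in TPM (limma; 1 at an unadjusted p under 0.05) and 1 called higher after scaling. None of these listed markers was at 0 in all libraries.

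Likeness of profile was measured as the root-mean-square difference over the 6 libraries of centred log2(TPM + 1) values, among 428 other miRNAs of at least 10 TPM on average. The mean profile of the 3 5p members was nearest to miR-300-3p (0.19), miR-665-3p (0.21), miR-671-5p (0.22), miR-191-3p (0.23) and miR-434-3p (0.24). That mean blends opposite changes, since miR-182-5p and miR-183-5p were 0.57 apart and miR-96-5p was 2.51 and 2.80 from them. The nearest miRNA to each member separately was therefore also taken, a choice made after the values were seen. It was miR-351-5p for miR-182-5p (0.15), miR-3099-3p for miR-183-5p (0.15) and miR-186-3p for miR-96-5p (0.38). miR-186-3p had 131 ± 76.8 TPM in embryos and 13.0 ± 13.3 TPM in newborns (SD, n = 3), and its log2 fold change was −3.55 in TPM (limma adjusted p = 0.00658). It was −2.36 and not called once scaled (limma adjusted p = 0.0592).

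The authors' deposited table gave miR-182-5p a log2 fold change of 1.75 (SE 0.60, adjusted p = 0.0304) and miR-183-5p one of 1.95 (SE 0.68, adjusted p = 0.0304). For miR-96-5p the authors' deposited table gave −2.32 (SE 0.78, adjusted p = 0.0255), and for miR-183-3p −1.71 (SE 0.81, adjusted p = 0.128). Thus 3 of the 4 members passed 0.05 in the authors' deposited table, 2 higher and 1 lower, where 10.4% of its miRNAs did, 5.13% higher and 5.32% lower. The signs were those of the limma fit under both scalings for all 4 members.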

How the data were processed

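Small RNA was sequenced as single-end QIAseq miRNA libraries from 6 litter pools, 3 at each of 2 stages. The authors deposited 1 table with a TPM value per mature miRNA and sample. The submitters' processing notes name featureCounts, DESeq2 1.26.0 and the build mm10, with no role or order; trimming, aligner and use of molecular tags are not given in the sources used here. The deposited TPM columns each summed to 1000000, and TPM multiplied by end minus start was a whole multiple of 1 step per sample in 100% of values (tolerance 0.001 of a step), so reads were recovered. Per the file headers, the authors also deposited a baseMean (a normalised signal), the log2 fold change and standard error of each row, its statistic (a score), and a p-value with an adjusted p-value.

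The 1104 rows named 1034 mature miRNAs; a name on several rows was represented by its most abundant row. The design allowed for counts; since the values were TPM, its TPM test was used: limma 3.58.1 under R 4.3.3, with the trend option, on log2(TPM + 1), a mean of at least 1 TPM, all 6 libraries, stage as the only term, Benjamini-Hochberg adjustment and a threshold of 0.05. Fold changes on this scale understate those of low miRNAs. Median-of-ratios factors came from 546 miRNAs above 0 in every library. The fit code was run on simulated data with as many raised as lowered miRNAs. The TPM changes here were mostly falls, so that run does not bear on how the TPM fit performs in these data. Ratios were tested with exact permutations over libraries in Python 3.11.15. The alternatives were other scalings, filters, pseudocounts and row choices, limma-voom on recovered reads, a replicate block, leaving out each library and, chosen after seeing the data, a GC correction over the 582 of 670 tested miRNAs with a RefSeq sequence.

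The rule named the 4 members, their other arms, any miRNA sharing a seed (0 found) and the 5 most alike in profile; listed cell type markers, the epithelial list among them, are named besides. The neighbour pairs and the miRNA nearest to each member were chosen after their values were seen. The members and lists were chosen with earlier results of these data known. The design text calls the samples biological replicates. A floor of 3 reads at a length step of 21 bases was 0.0863 to 1.14 TPM per library, and floors cover counting error only. Same-numbered samples came from different litters, so the main fit has no block.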

Additional observations from a re-analysis of the deposited data

How the results depend on the processing

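The direction of change of each of the 4 members was kept under every alternative run. With median-of-ratios scaling, upper-quartile scaling, limma-voom with median-of-ratios factors, the replicate block with median-of-ratios scaling, and the GC correction with median-of-ratios scaling, 73, 63, 28, 67 and 71 miRNAs were called, against 229 in TPM. Under the same settings the log2 fold change of miR-183-3p was −1.51, −1.39, −1.47, −1.51 and −1.34, each no longer past the threshold. That of miR-96-5p lost its call at −2.33 (upper quartile), −2.43 (limma-voom, median-of-ratios) and −2.47 (replicate block with median-of-ratios scaling, limma adjusted p = 0.0514). That of miR-182-5p gained a call at 1.92, 2.05, 1.92 and 1.98 (median-of-ratios, upper quartile, replicate block with median-of-ratios, GC correction with median-of-ratios), and had none at 1.89 under voom on that scaling (limma adjusted p = 0.0513). The cause was not tested.

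When 1 library was left out, between 72 (without E14.5 replicate 3) and 420 (without P0 replicate 1) miRNAs were called. Without E14.5 replicate 1 and P0 replicates 2 and 3, 111, 115 and 134 were called. The log2 fold change ranged from −4.68 to −2.90 for miR-96-5p and from −3.09 to −2.38 for miR-183-3p, called each time. It ranged from 0.42 to 0.81 for miR-182-5p and from 0.22 to 1.35 for miR-183-5p, both called without P0 replicate 1 alone, as also after median-of-ratios scaling (2.22 and 2.81). The log2 ratio of miR-182-5p to miR-183-5p reversed to 0.29 without P0 replicate 2 and to 0.24 without P0 replicate 3, with a range from −0.58. The other ratios ranged from −6.02 to −3.30 (miR-96-5p to miR-183-5p), 3.54 to 5.44 (miR-182-5p to miR-96-5p) and −4.44 to −2.68 (miR-183-3p to miR-183-5p).

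Deviations of same-numbered samples correlated at 0.193, 0.183 and 0.042, not all over 0.1, so the numbers were not taken to pair the samples, and P0 replicate 3 did not correlate best with its own number. With the replicate block in TPM 247 miRNAs were called, miR-96-5p at a limma adjusted p of 0.00424. Depth limits miR-96-3p and miR-182-3p, with 0 to 20 and 0 to 157 reads at P0.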
